A study of Mus musculus with 71 samples.

Results

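Mouse embryos that lack miR-18a as well as miR-17 and miR-20a (Δ17,18) were compared with embryos that lack miR-17 and miR-20a alone (Δ17). By their labels the 2 groups differ by miR-18a, and 3 dissected tissues were taken. Xist expression also differed between the groups, and chromosome 14 had a larger share of calls, as given below. The comparison was chosen by the genotype and tissue labels, 3 libraries of each genotype in tail bud, in heart and in what was left of the embryo (the remaining embryo, or rest), which gave 18 of the 71 libraries of the series. A pair of groups that kept miR-17 and miR-20a, Δ18 (miR-18a deleted) and wild type, was set beside it, again with 3 libraries per tissue each. All embryos carried the C57BL/6 strain label and were collected at embryonic day 9.5 with 20 to 22 somites. The deletions are germline alleles of the miR-17~92 cluster, so every cell of the embryo carries them. The labels do not say whether the alleles were homozygous, or whether a library came from 1 embryo or from several.

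MiR-17~92 is a cluster of microRNAs cut from a primary transcript whose gene is Mir17hg. A microRNA guides the Argonaute complex to 3′ untranslated regions (3′ UTRs) that pair with its seed, bases 2 to 8 of the mature strand, and targets are usually lowered modestly in RNA level. The cluster holds 4 seed families, and it is known for promoting proliferation and survival in progenitor cells and for heart, lung and skeletal defects when it is lost. MiR-17 and miR-20a form 1 seed family, and miR-18a belongs to another. MiR-18b, made from a paralogous cluster on the X chromosome, has the miR-18 seed and is not touched by these alleles.

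The mature strands are shown to let the 2 seeds be compared, with the seed in capitals (RefSeq, GRCm38.p6).
miR-18a-5p: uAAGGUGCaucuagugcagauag
miR-18b-5p: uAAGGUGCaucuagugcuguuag
miR-17-5p: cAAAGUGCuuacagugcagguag
miR-20a-5p: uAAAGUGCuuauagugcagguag
MiR-17-5p and miR-18a-5p differ at 6 of 23 positions, of which 1 lies in the seed (A4G, counted from the 5′ end, with the miR-17-5p base first). MiR-18a-5p and miR-18b-5p differ at 2 positions and share the whole seed. A 3′ UTR match to bases 2 to 8 of the miR-18 seed reads GCACCTT and is called a 7mer, and the same match followed by A, GCACCTTA, is called an 8mer. Among 19751 genes with an annotated 3′ UTR, 252 held the 8mer on the transcribed strand (1.28%) and 1455 held either match (7.37%).

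Sites of 4 genes that the results turn on are shown here, each with its match in capitals (GRCm38, minus strand apart from Zfp651). Zfp367 and Zfp651 were higher without miR-18a whether or not miR-17 was present, although Zfp651 did not pass in the absence of miR-17 with the replicate block described below (adjusted p = 0.0504), and Trappc10 and Kpna6 had smaller differences where miR-17 was absent.
Zfp367, 8mer at chr13:64135225-64135254: cttgggcataagctaaGCACCTTAtttgct
Zfp651, 8mer at chr9:121768849-121768878: ttctttgtcacactctGCACCTTAcacccc
Trappc10, 8mer at chr10:78187056-78187085: ataatcgacatcttttGCACCTTAagtctt
Kpna6, 7mer at chr4:129647659-129647687: ctgaggtaatcaatttGCACCTTtaaaat
A match is a description of the letters and not a shown binding site.

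The deposited table holds raw read counts, and totals of the 18 libraries ran from 14928557 to 26445100 counts. Levels are given as CPM, counts scaled to a common library size with TMM factors; levels of T, Myh6 and Afp and the sums over marker and Hox lists are scaled by the library total alone. Tissue labels were matched by their markers: 6 cardiomyocyte genes summed to between 28049 and 30166 CPM in Δ17,18 hearts and between 30675 and 32666 CPM in Δ17 hearts, while they summed to 19.9 to 37.3 CPM in Δ17,18 tail buds and 18.2 to 31.3 CPM in Δ17 tail buds. The tail bud gene T (brachyury) stood at 280.4, 269 and 218 CPM in Δ17,18 tail buds and 230.2, 234 and 271 CPM in Δ17 tail buds. A few tail buds had more of a heart marker. Myh6, a cardiac myosin, was at 7.15 CPM in the first Δ17,18 tail bud, against at most 1.92 CPM in the other tail buds of Δ17,18 and Δ17, and at 5.35 CPM in the third wild-type tail bud. Xist, which marks embryos with an inactive X chromosome, was expressed in 2 of 3 replicate numbers of Δ17,18 and 1 of 3 of Δ17, and in 2 of 3 of Δ18 and 1 of 3 of wild type. Libraries of the same genotype and replicate number deviated together across tissues (Pearson r 0.12 to 0.57 over 18 pairs and 10266 genes), so the 3 tissues are not independent samples of the comparison. In bulk tissue, fewer cells of a type and less RNA per cell cannot be told apart.

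Mir17hg (ENSMUSG00000089726, chr14:115042879-115046727, plus strand, GRCm38), the host transcript, was measured to check the labels. In the remaining embryo it stood at 312, 279 and 287 CPM in Δ17,18, 300.2, 311 and 294 CPM in Δ17, 151, 169.9 and 166 CPM in Δ18 and 154, 161 and 159 CPM in wild type. The Δ17,18 and Δ17 libraries overlapped with each other and lay above all Δ18 and wild-type libraries. Over the 3 tissues the log2 fold change between Δ17,18 and Δ17 was 0.00 ± 0.04 (± SE throughout, adjusted p = 0.996, edgeR's quasi-likelihood test), and between Δ17 and wild type it was 0.94 ± 0.04 (adjusted p = 1.43e-25). The deposited counts are per gene, so this check does not read the deleted hairpins themselves.

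Within single tissues, few genes differed past the threshold between Δ17,18 and Δ17. Fold changes, p-values and calls come from edgeR's quasi-likelihood test, with Benjamini-Hochberg adjustment over all genes tested and a threshold of 0.05. In tail bud 0 of 17009 genes passed (0%), although 1292 had an unadjusted p under 0.05 and DESeq2 called 21. The lowest adjusted p there was 0.0558, for Esd. In heart 3 of 16750 genes passed (0.0179%), 1 higher and 2 lower in Δ17,18. The remaining embryo gave 24 of 17512 genes (0.137%), 18 higher and 6 lower. The counterpart with miR-17 present, Δ18 against wild type, gave 22 (0.129%), 7 (0.0418%) and 63 (0.36%) genes in the same 3 tissues.

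Phyhip (ENSMUSG00000003469, chr14:70457476-70468832, plus strand, GRCm38) had the largest fold change among the genes called in heart. Its product interacts with phytanoyl-CoA hydroxylase. In heart it stood at 3.89, 3.24 and 3.08 CPM in Δ17,18, against 0.827, 0.0661 and 0.450 CPM in Δ17. In tail bud the values were 3.36, 2.99 and 3.54 CPM in Δ17,18 and 1.16, 1.10 and 1.27 CPM in Δ17, and in the remaining embryo they were 3.52, 3.96 and 3.48 CPM in Δ17,18 and 1.76, 1.22 and 0.988 CPM in Δ17. Every Δ17,18 library was above every Δ17 library of its tissue, and also above every Δ18 and wild-type library, which ranged up to 1.80 CPM. The log2 fold change was 2.82 ± 0.42 in heart (adjusted p = 0.00210), 1.49 ± 0.23 in the remaining embryo (adjusted p = 0.00130) and 1.92 ± 0.18 over the 3 tissues (adjusted p = 7.75e-12). Its mean level was low, and no miR-18 seed match was found in its 3′ UTR.

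The 2 genes lower in Δ17,18 heart were Eif3s6-ps2 and Grhl1. Eif3s6-ps2, an annotated pseudogene of the translation initiation factor gene Eif3e, stood at 7.09, 7.93 and 7.43 CPM in Δ17,18 hearts and 12.4, 13.6 and 11.9 CPM in Δ17 hearts (-0.76 ± 0.11, adjusted p = 0.00210), and it was also called in the remaining embryo (-0.84 ± 0.09, adjusted p = 4.01e-06). In hearts Δ17 was the high group, since Δ18 had 9.64, 6.87 and 7.32 CPM and wild type 7.55, 7.47 and 7.63 CPM. Eif3e itself did not pass the test over the tissues (-0.02 ± 0.04, adjusted p = 0.911). Reads of a pseudogene can be shared with its parent or other copies, so the value is uncertain. Grhl1, a grainyhead transcription factor, had a log2 fold change of -0.42 ± 0.08 in heart (adjusted p = 0.0452) and did not pass over the 3 tissues (-0.18 ± 0.10, adjusted p = 0.420).

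In the remaining embryo, the 18 genes higher in Δ17,18 included a pair of T-box transcription factors of limb, heart and pharyngeal development, Tbx2 (0.54 ± 0.09, adjusted p = 0.00222) and Tbx3 (0.42 ± 0.08, adjusted p = 0.0138). Genes of mitochondrial proteins were among them, Mrps34 of the mitochondrial ribosome (0.87 ± 0.17, adjusted p = 0.0138), Cox6a1 (0.26 ± 0.05) and Cox8a (0.37 ± 0.07) of cytochrome oxidase, and Dguok (0.36 ± 0.07), which phosphorylates deoxyguanosine. Tbx3, Cox6a1, Cox8a and Dguok were picked out after their values were seen. The kinase gene Atm was also higher (0.18 ± 0.04, adjusted p = 0.0167). The 6 genes lower in Δ17,18 included Esd (-0.57 ± 0.08, adjusted p = 0.000419), an esterase that acts on S-formylglutathione, and Elp3 (-0.18 ± 0.04, adjusted p = 0.0138), the catalytic subunit of the Elongator complex. The called differences could be small, with a fold of 0.880 for Elp3 and 1.13 for Atm.

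Averaging the log2 fold changes of the 3 tissues in a joint model of all 71 libraries gave 397 of 18875 genes past the threshold (2.1%), 214 higher (1.13%) and 183 lower (0.97%) in Δ17,18 than in Δ17. The median absolute log2 fold change of the called genes was 0.20. The higher and lower calls differed in size: 70 of the 214 higher genes but 9 of the 183 lower genes changed by more than 0.5 on the log2 scale, and 51 and 147 changed by less than 0.2. Of the 214 higher genes, 50 had a mean log2 CPM under 2, against 7 of the lower genes. When libraries of the same genotype and replicate number were joined as a replicate block (limma voom with a random block, correlation 0.121), 179 genes passed, 100 higher and 79 lower, of which 176 were among the 397. The count also moved with single replicate numbers, to 96 without Δ17 replicate 2, 131 without Δ17 replicate 3, 148 without Δ17,18 replicate 2 and 156 without Δ17,18 replicate 3, and to 721 without Δ17 replicate 1 and 755 without Δ17,18 replicate 1.

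**Figure D1:**
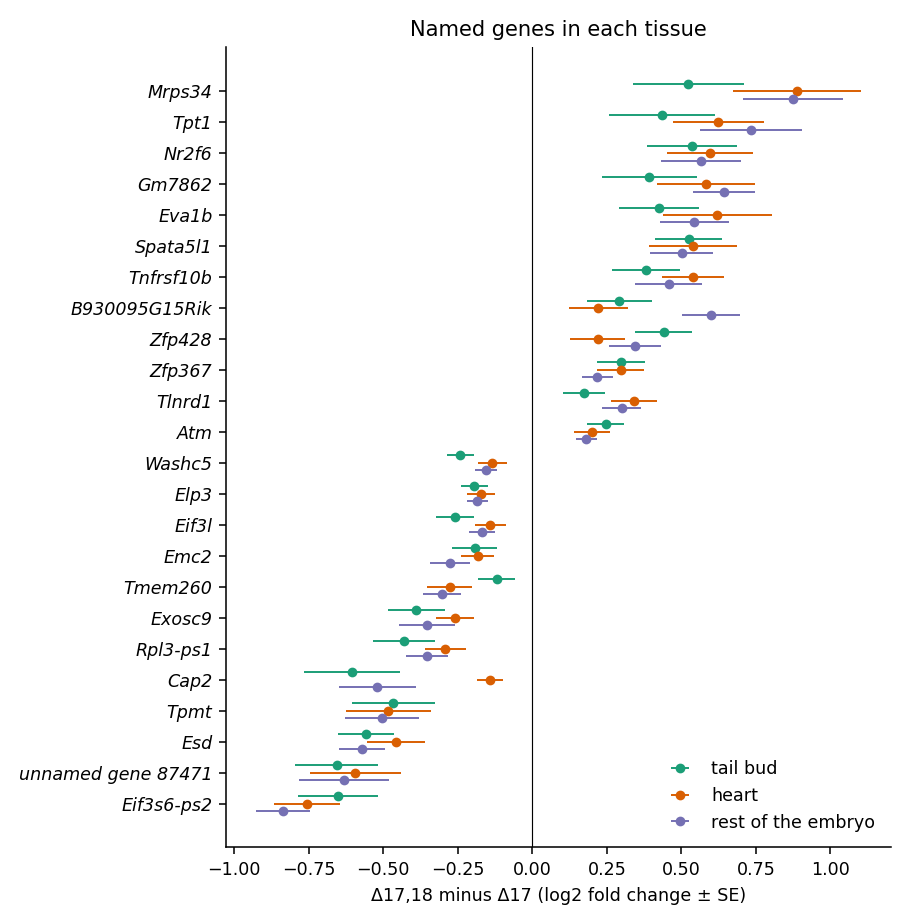
Log2 fold change of Δ17,18 minus Δ17 (x axis, points with SE bars) in tail bud, heart and the remaining embryo for the 24 genes named from the mean over the tissues (y axis). The 12 higher genes lie right of 0 and the 12 lower genes left of 0 in every tissue, from Mrps34 at the top (0.75 in the mean) to Eif3s6-ps2 at the bottom (-0.75); the same sign in all 3 tissues was a condition for being named.

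The genes named by smallest p were required to share their sign over the tissues and to have a mean log2 CPM of at least 2. Among the 12 higher genes was Tnfrsf10b, the TRAIL death receptor and a p53 target (ENSMUSG00000022074, chr14:69767472-69784411, plus strand, GRCm38). It stood at 10.4, 11.3 and 13.1 CPM in Δ17,18 and 8.56, 8.22 and 9.94 CPM in Δ17 tail buds, and at 13.2, 13.6 and 14.8 CPM in Δ17,18 and 10.5, 9.45 and 8.71 CPM in Δ17 hearts. The remaining embryo had 17.3, 12.9 and 16.5 CPM in Δ17,18 and 11.4, 11.7 and 10.8 CPM in Δ17. The groups did not overlap in any of the 3 tissues, where 16.1%, 11.5% and 16.8% of all genes tested in tail bud, heart and the remaining embryo did not overlap. The mean log2 fold change was 0.45 ± 0.07 (adjusted p = 8.09e-06), and it was 0.12 ± 0.07 for Δ18 against wild type (adjusted p = 0.346).

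Spata5l1 is the symbol of an AAA-type ATPase gene, but the entry counted here is annotated as a processed transcript and not as protein coding. It stood at 13.0, 11.3 and 13.3 CPM in Δ17,18 and 9.67, 7.89 and 8.46 CPM in Δ17 tail buds. In the remaining embryo it stood at 14.5, 13.1 and 14.9 CPM in Δ17,18 and 10.3, 8.82 and 10.9 CPM in Δ17. The groups did not overlap in either tissue (0.51 ± 0.07 over the tissues, adjusted p = 5.22e-06). It was also lower in Δ17 than in wild type (-0.25 ± 0.07, adjusted p = 0.0301). Mrps34 was higher by 0.75 ± 0.12 (adjusted p = 2.53e-05), with 6.00, 6.06 and 6.46 CPM in Δ17,18 and 4.50, 2.18 and 3.15 CPM in Δ17 hearts. The zinc finger gene Zfp367 and Atm, described below, followed in the order of p. The orphan nuclear receptor gene Nr2f6 had 0.56 ± 0.09 (adjusted p = 7.78e-05), the talin rod domain gene Tlnrd1 0.26 ± 0.04 (adjusted p = 0.000103) and the zinc finger gene Zfp428 0.33 ± 0.05 (adjusted p = 0.000103). Tpt1, an abundant translationally controlled protein gene, had 0.59 ± 0.10 (adjusted p = 0.000199), and since Tpt1 has many processed copies in the genome its counts may be split among them. B930095G15Rik (0.37), Gm7862 (0.53) and Eva1b (0.52) completed the 12.

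Lower genes had smaller differences and higher levels. Esd (ENSMUSG00000021996, chr14:74732297-74750765, plus strand, GRCm38) stood at 35.4, 28.1 and 37.9 CPM in Δ17,18 and 47.6, 53.3 and 48.2 CPM in Δ17 tail buds, and at 38.1, 24.9 and 35.3 CPM in Δ17,18 and 41.9, 46.6 and 47.6 CPM in Δ17 hearts. In the remaining embryo it stood at 40.4, 29.4 and 39.3 CPM in Δ17,18 and 50.5, 57.0 and 53.6 CPM in Δ17. The second Δ17,18 library was the lowest in each tissue, and the groups did not overlap (-0.53 ± 0.06, adjusted p = 3.59e-09). RNA processing and translation genes among the 12 were Exosc9 of the RNA exosome (-0.34 ± 0.05, adjusted p = 1.25e-05), Eif3l of translation initiation factor 3 (-0.19 ± 0.03, adjusted p = 0.000131) and Elp3 (-0.19 ± 0.03, adjusted p = 1.27e-06). Membrane and cytoskeleton genes were Washc5 of the WASH complex (-0.18 ± 0.03), Emc2 of the endoplasmic reticulum membrane complex (-0.22 ± 0.04), Tmem260, an O-mannosyltransferase (-0.24 ± 0.04), and Cap2, an actin regulator of striated muscle (-0.43 ± 0.07). Tpmt, the thiopurine methyltransferase, had -0.49 ± 0.08. Rpl3-ps1, a ribosomal protein pseudogene, had -0.36 ± 0.05, Eif3s6-ps2 -0.75 ± 0.07, and 1 gene without a symbol -0.63. All 24 named genes also passed with the replicate block.

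Several differences rested on unequal libraries within a genotype, and the same replicate number stood apart in all 3 tissues. Rpl3, a ribosomal protein gene looked up because its pseudogene was named, was higher in Δ17,18 (1.14 ± 0.20, adjusted p = 0.000367) while Rpl3-ps1 was lower. Rpl3 stood at 79.1, 74.6 and 76.9 CPM in Δ17,18 tail buds and at 44.9, 11.8 and 50.2 CPM in Δ17 tail buds. Δ17 replicate 2 was also lowest in heart, at 5.81 CPM against 34.5 and 34.6 CPM in replicates 1 and 3, and in the remaining embryo, at 12.3 CPM against 48.3 and 54.0 CPM. Wild-type replicate 1 was likewise below the other wild-type libraries in each tissue, at 50.5, 32.9 and 53.2 CPM. The labels do not say whether a replicate number is the same embryo in all tissues, and reads of Rpl3 and its pseudogene can be shared.

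**Figure D2:**
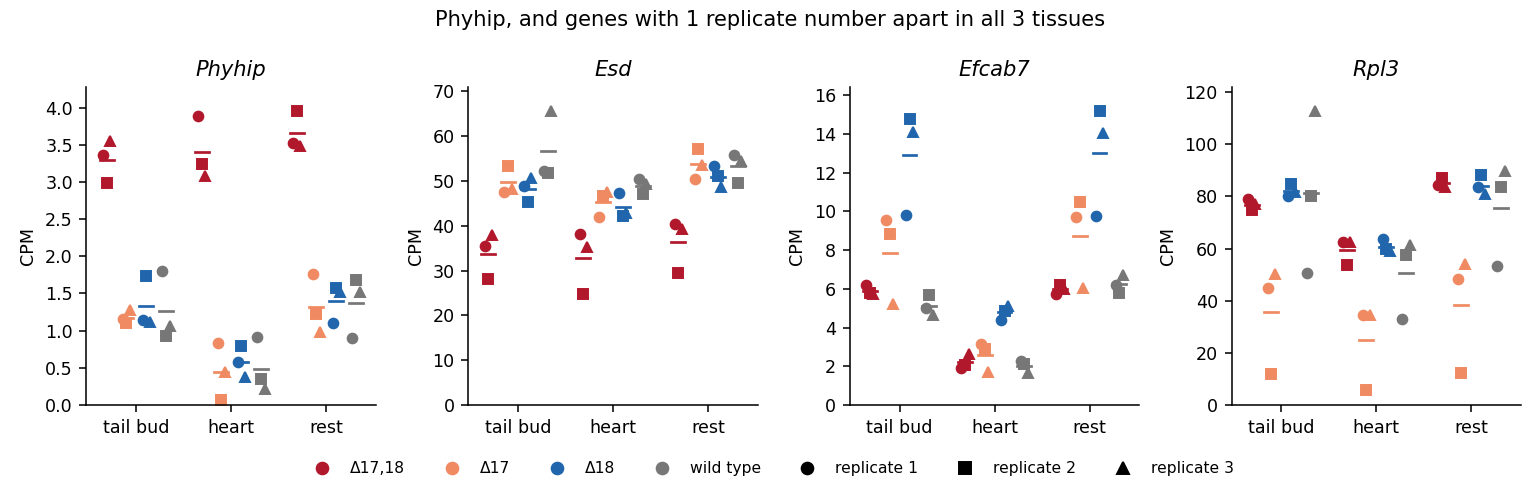
CPM (y axis) of Phyhip, Esd, Efcab7 and Rpl3 in each library of Δ17,18, Δ17, Δ18 and wild type (colours; marker shapes give the replicate number, bars the mean of 3) in tail bud, heart and the remaining embryo (x axis). Phyhip is high in all 9 Δ17,18 libraries, whereas Rpl3 drops in Δ17 replicate 2, Esd in Δ17,18 replicate 2 and Efcab7 in Δ17 replicate 3 in each tissue.

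Agreement over the tissues was described for the 378 called genes tested in every tissue: 373 had the same sign in all 3 (98.7%), against 6130 of 15688 genes in all (39.1%). The call was made on the mean of the same 3 values, which favours equal signs, so the share is a description. Across 10618 genes with mean log2 CPM of at least 3, fold changes had a Pearson r of 0.17 between tail bud and heart, 0.42 between tail bud and the remaining embryo and 0.32 between heart and the remaining embryo, with the replicate numbers shared between tissues. No gene's difference passed a test between tissues (0 of 18875 genes, 0%, edgeR; 853 at an unadjusted p under 0.05; limma voom 0, and 2 with the replicate block). The heart and remaining-embryo calls shared Eif3s6-ps2 and Phyhip, 2 of 3 and 2 of 24 genes.

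Genes with a miR-18 8mer had small differences when miR-18a was lost on top of miR-17. Of the 252 genes, 231 were tested, 7 were higher and 2 lower in Δ17,18 than in Δ17, beside 1.13% and 0.97% of all genes, and their median log2 fold change over the tissues was 0.027, beside 0.003 for all genes. The count of higher genes was 1 without Δ17,18 replicate 3, 1 without Δ17 replicate 2, 3 without Δ17 replicate 3 and 1 without the remaining embryo. The share with a positive sign was 64.5%, beside 51.4% of all genes. In the same 231 genes the median was 0.097 for Δ18 against wild type, with 47 higher (all genes 1.22%), 0 lower and 83.1% positive. The interquartile range of the 231 genes ran from -0.02 to 0.11 in Δ17,18 against Δ17 and from 0.03 to 0.21 in Δ18 against wild type. Tissue by tissue, medians were 0.030, 0.013 and 0.033 in tail bud, heart and the remaining embryo for Δ17,18 against Δ17, with no gene called, and 0.122, 0.062 and 0.093 for Δ18 against wild type, with 6, 2 and 19 genes called higher (0.129%, 0.0418% and 0.268% of all genes).

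**Figure D3:**
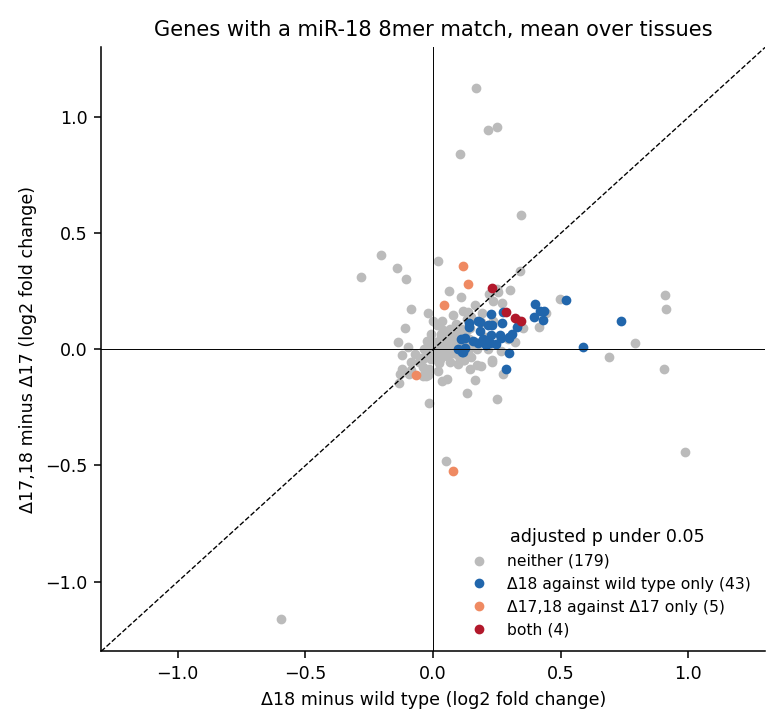
Log2 fold change over the 3 tissues of the 231 tested genes with a miR-18 8mer, Δ17,18 minus Δ17 (y axis) against Δ18 minus wild type (x axis), coloured by which comparison called them. Most coloured points lie right of 0 and below the dashed line of equal change: 43 genes were called in Δ18 alone, 4 in both and 5 in Δ17,18 against Δ17 alone.

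The 8mer genes also had mostly positive values in Δ17, which keeps miR-18a, against wild type. That comparison shares the Δ17 libraries with Δ17,18 against Δ17 and the wild-type libraries with Δ18 against wild type, so its values stand beside theirs without a test. Their median log2 fold change for Δ17 against wild type was 0.076, with 47 higher and 1 lower, beside 3.61% and 1.68% of all genes (5.3% together), and 29 of the 231 genes were higher in both Δ17 and Δ18 than in wild type. In the 166 tested 8mer genes that hold no match of the miR-17 family, the medians were 0.020 for Δ17,18 against Δ17, 0.092 for Δ18 against wild type and 0.056 for Δ17 against wild type. Genes with a miR-17 8mer (619 tested) had a median of 0.009 for Δ17,18 against Δ17, with 8 higher and 3 lower (1.13% and 0.97% of all genes), and of 0.137 for Δ17 against wild type, with 235 higher (3.61% of all genes). Among the 214 genes higher in Δ17,18 than in Δ17, 178 had an annotated 3′ UTR, of which 14.0% held a miR-18 7mer or 8mer. The share was 48.4% of the genes higher in Δ18 than in wild type and 8.38% of all genes tested.

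For each library the mean log2 CPM of 8mer genes less that of genes with no match to the 4 seed families was computed and set to 0 in the wild-type mean of its tissue. In tail bud it was 0.150 ± 0.013 in Δ17,18, 0.121 ± 0.022 in Δ17 and 0.143 ± 0.024 in Δ18 (mean ± SD, n = 3). Heart had 0.113 ± 0.020 in Δ17,18, 0.102 ± 0.013 in Δ17 and 0.086 ± 0.022 in Δ18. The remaining embryo had 0.095 ± 0.008 in Δ17,18, 0.071 ± 0.007 in Δ17 and 0.105 ± 0.025 in Δ18. Each mutant group lay above its wild-type libraries, which reached at most 0.042, 0.009 and 0.023 in the 3 tissues. The Δ17,18 and Δ17 libraries did not overlap in the remaining embryo (0.0860 to 0.0996 against 0.067 to 0.079) and overlapped in tail bud and heart. The third wild-type tail bud, the one with 5.35 CPM of Myh6, was the lowest library at -0.083.

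**Figure D4:**
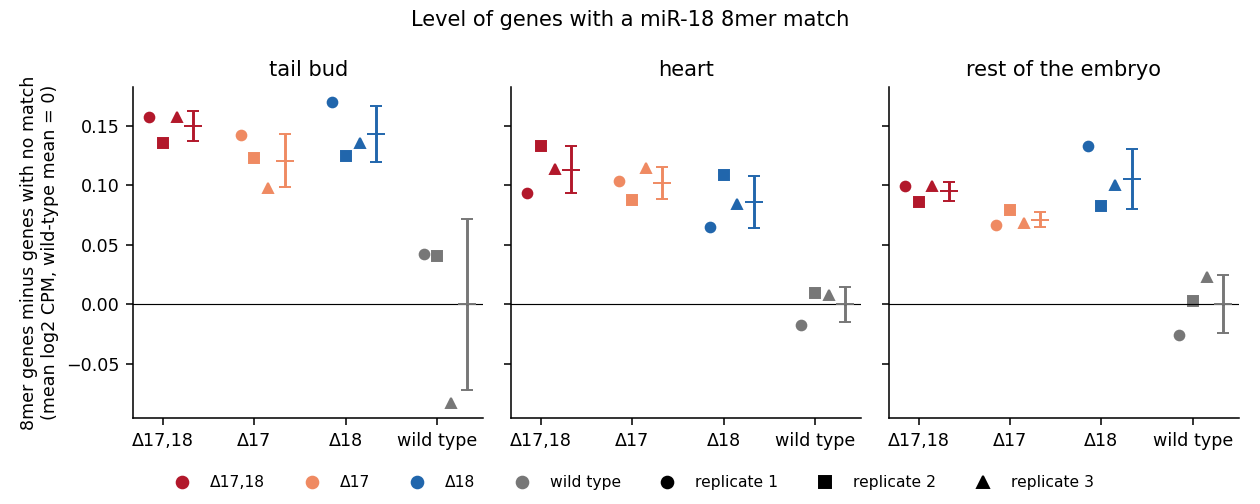
Mean log2 CPM of genes with a miR-18 8mer minus that of genes with no match of the 4 seed families (y axis, wild-type mean of each tissue set to 0) for each library of Δ17,18, Δ17, Δ18 and wild type (x axis) in 3 tissues; marker shapes give the replicate number and error bars the mean ± SD of 3. All 9 libraries of Δ17,18 and all 9 of Δ17 lie above the wild-type libraries of their tissue, and the step between Δ17,18 and Δ17 is smaller than the step between either and wild type.

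The 7 8mer genes called higher in Δ17,18 included Zfp367, Rnaseh2c, Trappc10, Zfp651, Ikzf2 and Mycn, and the 2 called lower were Tox4 and Pi16. Zfp367 (chr13:64133018-64153202, minus strand, GRCm38), a zinc finger transcription factor gene whose 8mer is shown above, had the smallest p of them. It stood at 35.2, 38.1 and 38.0 CPM in Δ17,18 and 33.0, 29.5 and 28.0 CPM in Δ17 tail buds, and at 47.0, 49.9 and 50.8 CPM in Δ17,18 and 44.0, 41.0 and 35.4 CPM in Δ17 hearts. The remaining embryo had 50.1, 48.1 and 46.9 CPM in Δ17,18 and 43.1, 40.3 and 41.5 CPM in Δ17. The groups did not overlap in any tissue. The log2 fold change was 0.27 ± 0.04 for Δ17,18 against Δ17 (adjusted p = 2.53e-05) and 0.23 ± 0.04 for Δ18 against wild type (adjusted p = 0.000246), with a difference between them of 0.04 ± 0.06 (adjusted p = 0.962). Zfp367 passed the threshold in each of 16 alternative analyses.

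Zfp651, a zinc finger gene, stood at 43.2, 44.3 and 44.0 CPM in Δ17,18 hearts and 39.3, 38.5 and 39.8 CPM in Δ17 hearts, against 33.2, 33.6 and 35.7 CPM in Δ18 hearts and 30.1, 26.7 and 27.7 CPM in wild-type hearts. Over the tissues it had 0.16 ± 0.04 for Δ17,18 against Δ17 (adjusted p = 0.0203), beside 0.28 ± 0.04 for Δ18 (adjusted p = 3.78e-06) and 0.50 ± 0.04 for Δ17 against wild type. Mycn, the proto-oncogene of embryonic progenitors, had 0.19 ± 0.05 (adjusted p = 0.0412), Ikzf2, a lymphoid zinc finger gene, 0.28 ± 0.07 (adjusted p = 0.0243), and Rnaseh2c, a ribonuclease H2 subunit, 0.36 ± 0.08 (adjusted p = 0.0119); none of the 3 passed for Δ18 against wild type. With the replicate block the calls of Trappc10 (adjusted p = 0.0504), Zfp651 (0.0504), Ikzf2 (0.0905), Mycn (0.0854), Tox4 (0.0905) and Pi16 (0.146) were lost.

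Genes that rose with miR-18a loss in the presence of miR-17 mostly kept their sign in its absence. Their share of positive values was larger than that of all genes, given above with the 8mer genes. Of 230 genes higher in Δ18 than in wild type over the tissues (1.22% of all), 195 had a positive value in Δ17,18 against Δ17 (84.8%), 18 passed the threshold there (7.83%, beside 1.13% of all genes) and 0 passed in the opposite direction. The 18 shared calls depended on single libraries and settings: 3 were shared without Δ17 replicate 2, 5 without Δ17,18 replicate 3, 7 without Δ17 replicate 3, 8 without Δ17,18 replicate 2, 1 without the remaining embryo, 11 with no filter on low counts, and 5 of 91 with the replicate block. The 230 were chosen on Δ18 and wild-type libraries, which share no library with the comparison of Δ17,18 and Δ17. Both comparisons were unequal in Xist in the same way, however, with 2 of 3 replicate numbers expressing it against 1 of 3. With a term for Xist expression, 87.4% of 253 genes higher in Δ18 had a positive value and 22 passed. Their median log2 fold change was 0.079 in Δ17,18 against Δ17, beside 0.234 in Δ18 against wild type. Of the 230, 226 were smaller in size in Δ17,18 against Δ17. The second median and this count are both raised by the choice of the genes on Δ18 against wild type. Genes chosen on Δ17,18 against Δ17, described below, had their medians in the reverse order. Of 271 genes lower in Δ18 (1.44% of all), 265 had a negative value in Δ17,18 against Δ17 and 51 passed (18.8%, beside 0.97% of all genes). Their medians were -0.082 in Δ17,18 against Δ17 and -0.132 in Δ18 against wild type. Of the 238 lower genes with an annotated 3′ UTR, 0 held a miR-18 8mer and 1.68% held a 7mer or 8mer, beside 8.38% of all genes tested. With the replicate block Δ18 against wild type gave 143 genes (91 higher, 52 lower) in place of 501 (2.65%).

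Seen from the other side, 180 of the 214 genes higher in Δ17,18 than in Δ17 had a positive value in Δ18 against wild type (84.1%) and 18 passed, with a median of 0.317 in Δ17,18 against Δ17 and 0.090 in Δ18 against wild type. Of the 183 lower genes, 165 kept the sign (90.2%) and 51 passed, with a median of -0.123 in Δ17,18 against Δ17 and -0.080 in Δ18 against wild type. The 18 genes higher in both included Zfp367, Atm, Dguok, Fbrsl1, Tex2, Nr1h2, Zfp36l2, Rgl3, Trappc10, Tmem259, Zfp651, Triobp, Lsm14b, Unk and Cdk19. Among them were the liver X receptor gene Nr1h2 (0.15 ± 0.04 in Δ17,18 against Δ17 and 0.29 ± 0.04 in Δ18 against wild type), the Mediator kinase gene Cdk19 (0.20 ± 0.06 in Δ17,18 against Δ17 and 0.48 ± 0.06 in Δ18 against wild type) and Dguok (0.28 ± 0.05 in Δ17,18 against Δ17 and 0.53 ± 0.05 in Δ18 against wild type), picked here after their values were seen. In single tissues 0 of 22 tail bud genes, 0 of 7 heart genes and 4 of 63 remaining-embryo genes called in Δ18 were also called in Δ17,18 against Δ17, and 21, 5 and 61 of them kept the sign.

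Whether the effect of miR-18a loss differed without and with miR-17 was tested directly, as Δ17,18 minus Δ17 less Δ18 minus wild type. In tail bud and heart 0 of 17009 and 0 of 16750 genes passed (0% each, edgeR; 588 and 715 at an unadjusted p under 0.05; 1 and 0 with DESeq2), and in the remaining embryo 2 of 17512 did (0.0114%), Atm and Efcab7. Over the tissues 22 of 18875 genes passed (0.117%), 18 with a more negative effect in the absence of miR-17 and 4 with a more positive one. With the replicate block 12 passed, 11 and 1 in these directions, and the count ran from 11 without wild-type replicate 3 to 51 without wild-type replicate 1. Of the 18 genes, 14 were higher in Δ18 than in wild type (1.22% of all genes) and 13 were higher in Δ17 than in wild type (3.61% of all genes). Both counts are descriptions, since a negative difference of effects is favoured by high Δ18 and Δ17 libraries and low wild-type ones. A miR-18 7mer or 8mer was found in 9 of the 16 that have an annotated 3′ UTR and an 8mer in 6, beside 8.38% and 1.53% of all tested genes with a 3′ UTR. Among the genes higher in Δ18 than in wild type, to which most of the 18 belong, the shares were already 48.4% and 21.7%. The match counts are therefore a description too. The 231 8mer genes as a whole had a median difference of -0.066, beside -0.001 for all genes, and 22.9% positive values.

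Atm (ENSMUSG00000034218, chr9:53439149-53536740, minus strand, GRCm38), the kinase that signals DNA double-strand breaks and a reported miR-18a target, was lowest in wild type in every tissue. In tail bud it stood at 229, 216 and 219.7 CPM in Δ17,18 and 192, 180.5 and 188 CPM in Δ17, and at 235, 217 and 218 CPM in Δ18 and 145, 152 and 125 CPM in wild type. The remaining embryo had 236, 229 and 234 CPM in Δ17,18 and 199.7, 211 and 205 CPM in Δ17, and 244, 242 and 243 CPM in Δ18 and 159, 171 and 167 CPM in wild type. In both tissues Δ17 lay between wild type and the genotypes without miR-18a. In hearts it stood at 116, 130.0 and 121 CPM in Δ17,18 and 105, 112 and 102 CPM in Δ17, and at 111, 121 and 109 CPM in Δ18 and 79.6, 81.2 and 91.7 CPM in wild type. The log2 fold change over the tissues was 0.20 ± 0.03 for Δ17,18 against Δ17 (adjusted p = 3.38e-05) and 0.55 ± 0.03 for Δ18 against wild type (adjusted p = 1.24e-20), and it was 0.35 ± 0.03 for Δ17 against wild type, which shares libraries with both. The difference of the first pair was -0.35 ± 0.04 (adjusted p = 1.18e-06), and no miR-18 seed match was found in the Atm 3′ UTR used here.

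Kpna6, an importin α of nuclear transport, stood at 164, 152 and 156 CPM in Δ17,18 and 145, 151 and 150.3 CPM in Δ17 in the remaining embryo, and at 159, 162 and 164 CPM in Δ18 and 133, 131 and 129 CPM in wild type. Its log2 fold change was 0.04 ± 0.03 in the absence of miR-17 (adjusted p = 0.462) and 0.31 ± 0.03 in its presence (adjusted p = 8.09e-14), a difference of -0.27 ± 0.04 (adjusted p = 2.53e-06). Trappc10 of the TRAPP vesicle tethering complex had 76.1, 75.2 and 71.6 CPM in Δ17,18 and 66.0, 65.8 and 65.7 CPM in Δ17, and 79.3, 75.7 and 75.9 CPM in Δ18 and 59.5, 62.2 and 59.7 CPM in wild type, in that tissue. It changed by 0.12 ± 0.03 without miR-17 (adjusted p = 0.0165) and by 0.34 ± 0.03 with it (adjusted p = 1.42e-12), and the difference was -0.22 ± 0.04 (adjusted p = 0.00585). Smad2, the TGF-β signal transducer, had 0.03 ± 0.02 without miR-17 and 0.22 ± 0.02 with it (difference -0.20 ± 0.03, adjusted p = 0.000377), and the histone mRNA exonuclease gene Eri1 0.05 ± 0.03 without miR-17 and 0.30 ± 0.03 with it (difference -0.24 ± 0.04, adjusted p = 0.00123). In these 4 genes Δ17 was also above wild type, by 0.20, 0.20, 0.16 and 0.25 in the order given. Eri1 was picked from the 22 genes after its values were seen.

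**Figure D5:**
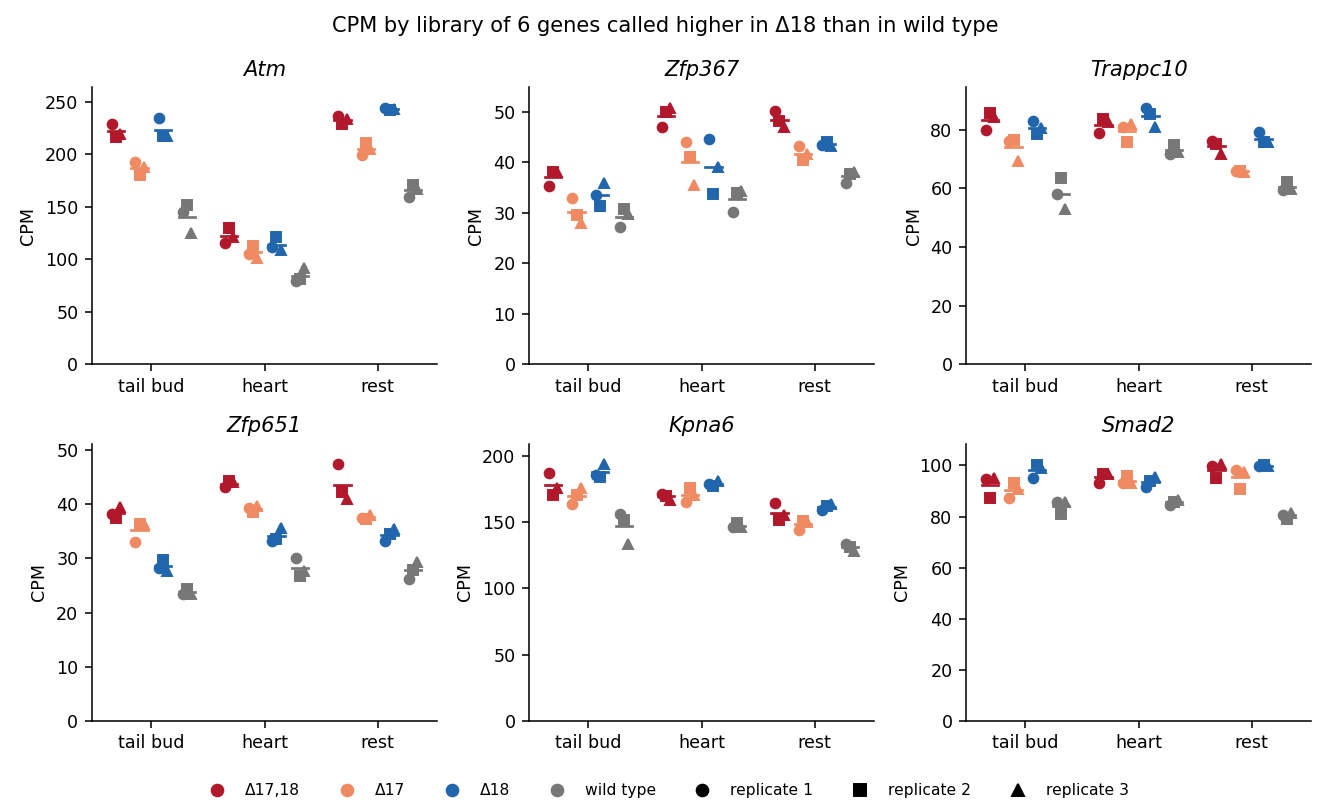
CPM (y axis) of Atm, Zfp367, Trappc10, Zfp651, Kpna6 and Smad2, genes higher in Δ18 than in wild type over the tissues, in each library of Δ17,18, Δ17, Δ18 and wild type (colours; marker shapes give the replicate number, bars the mean of 3) in tail bud, heart and the remaining embryo (x axis). The wild-type mean is the lowest in each panel and tissue. The step of Δ17,18 over Δ17 is larger for Zfp367 (0.27 over the tissues) and Atm (0.20) than for Kpna6 (0.04) and Smad2 (0.03). For Kpna6 the Δ17,18 and Δ17 libraries do not overlap in the remaining embryo.

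Efcab7, a protein of the primary cilium, had the largest difference, -1.60 ± 0.17 (adjusted p = 4.34e-09). It stood at 5.71, 6.21 and 6.01 CPM in Δ17,18 and 9.72, 10.5 and 6.02 CPM in Δ17 in the remaining embryo, and at 9.75, 15.2 and 14.0 CPM in Δ18 and 6.22, 5.79 and 6.72 CPM in wild type. Δ17 replicate 3 was near Δ17,18, and Δ18 replicate 1 was below the other Δ18 libraries, so the difference rested on libraries that were unequal within a genotype. The 4 genes with a more positive effect in the absence of miR-17 were Phyhip (1.82 ± 0.28, adjusted p = 6.43e-05), Spata5l1 (0.50 ± 0.10, adjusted p = 0.0145), Cox6c2 and 4930524J08Rik. None of the 4 was called higher in Δ18. An annotated 3′ UTR was on hand for 2 of them, Phyhip and 4930524J08Rik, and neither held a miR-18 match.

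Of the genes reported elsewhere as miR-18a targets, 19 were listed and tested: 1, Atm, was higher in Δ17,18 than in Δ17 and 0 were lower, beside 1.13% and 0.97% of all genes, with a median log2 fold change of 0.064. Ccn2 and Thbs1, secreted matrix proteins reported as targets in tumour cells, had 0.20 ± 0.19 (adjusted p = 0.677) and 0.14 ± 0.12 (adjusted p = 0.648). Of the signalling and receptor genes, Smad4, the shared mediator of TGF-β and BMP signals, had -0.03 ± 0.04, the glucocorticoid receptor gene Nr3c1 0.16 ± 0.08 and the oxygen-regulated factor gene Hif1a -0.01 ± 0.03, none past the threshold. Nedd9, a focal adhesion scaffold gene with an 8mer and a 7mer, had 0.06 ± 0.05 for Δ17,18 against Δ17 (adjusted p = 0.642) and 0.26 ± 0.06 for Δ18 against wild type (adjusted p = 0.00335), and the difference between them did not pass (-0.20 ± 0.08, adjusted p = 0.534). Of 25 listed miR-17 targets, 0 passed, beside 2.1% of all genes.

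Pathway and cell type lists held called genes at a share near that of all genes. Over 22 lists with 383 tested members (a gene can be in more than 1), 6 memberships were called higher and 1 lower in the mean over the tissues, beside 2.1% of all genes called, and 16 lists had no call. In the p53 target list of 15 genes, Tnfrsf10b was higher and Ei24 lower (-0.11 ± 0.03, adjusted p = 0.0417). The TGF-β and BMP list of 32 had Id1, an inhibitor of basic helix-loop-helix factors, higher (0.33 ± 0.08, adjusted p = 0.0147), and the endothelium list of 16 had Sox18 higher (0.36 ± 0.08, adjusted p = 0.00508). The cell cycle and E2F list of 26, the hypoxia and glycolysis list of 20 and the microRNA machinery list of 16 had no call, with medians of -0.004, -0.04 and -0.001. In the mean over the tissues, cardiomyocyte (16 of 18 tested), neural (13 of 16), somite derivative (12 of 14) and neural crest genes (12 of 14) were mostly positive, again with no call. In heart itself the sum of cardiomyocyte markers given above was lower in Δ17,18 than in Δ17, without overlap. Myh6 stood at 6395, 6120 and 7094 CPM in Δ17,18 hearts and 7798, 7718 and 7326 CPM in Δ17 hearts. All 15 cholesterol synthesis genes had a negative sign, with a median of -0.17 and no call.

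Hox genes shared a positive sign in the mean over the tissues, with the largest median in heart. All 37 tested Hox genes were positive in the mean over the tissues (median 0.49), beside 51.4% of all genes, and 1 of 37, Hoxb5, passed, beside 2.1% of all genes (0.79 ± 0.21, adjusted p = 0.0261). The medians were 1.05 in heart, 0.09 in tail bud and 0.21 in the remaining embryo, and 0 Hox genes passed in any single tissue. The sign was not shared by every Hox gene within tissues. Scaled by the library total alone, Hoxb9 averaged 124.8 CPM in Δ17,18 and 137.0 CPM in Δ17 tail buds. It averaged 83.2 and 86.0 CPM in the remaining embryo and 2.58 and 1.79 CPM in heart. Hoxb5 averaged 28.2 CPM in Δ17,18 and 24.5 CPM in Δ17 tail buds. The level behind the heart values was low. The Hox list summed to 54.2, 47.7 and 38.7 CPM in Δ17,18 hearts and 11.3, 21.9 and 37.6 CPM in Δ17 hearts, while it summed to 2858, 2957 and 2756 CPM in Δ17,18 tail buds and 2726, 2458 and 2786 CPM in Δ17 tail buds. The tail bud gene T was at 4.49, 3.90 and 2.86 CPM in Δ17,18 hearts and 1.01, 1.14 and 2.76 CPM in Δ17 hearts, and 19 of 20 tested tail bud and segmentation genes were positive in heart (median 0.68, 0 called). A set of 6 tail bud markers, none at 0 in all libraries of a group, summed to 17.8, 16.4 and 12.2 CPM in Δ17,18 hearts and 6.33, 6.97 and 13.5 CPM in Δ17 hearts. Their part in the Hox values of heart was not tested. Fgf8, a growth factor of the tail bud and pharynx, passed in the mean (0.56 ± 0.13, adjusted p = 0.0138), with 34.4, 39.2 and 29.1 CPM in Δ17,18 and 23.9, 20.6 and 26.1 CPM in Δ17 tail buds, without overlap. Hoxb5 and Fgf8 did not pass with the replicate block (adjusted p = 0.238 and 0.108).

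Markers of tissues that a dissection can leave behind were uneven as well. All 13 genes of the yolk sac and visceral endoderm list had negative log2 fold changes in the remaining embryo (median -2.10, 0 called). Afp, the fetal albumin-like protein of yolk sac, stood at 22.3, 26.5 and 23.2 CPM in Δ17,18 and 89.1, 86.3 and 28.5 CPM in Δ17 there, so replicates 1 and 2 of Δ17 were high and replicate 3 was close to Δ17,18. The 6 yolk sac markers summed to 40.2, 40.9 and 45.1 CPM in Δ17,18 and 241, 283 and 61.0 CPM in Δ17 in the remaining embryo, without overlap and again with none at 0 in all libraries of a group. All 13 primitive erythroid genes were positive in the mean (median 0.23, 0 called), and 6 erythroid markers summed to 2738, 4968 and 3752 CPM in Δ17,18 and 2983, 2731 and 1949 CPM in Δ17 in the remaining embryo. The other tissues were uneven between libraries. Scaled by the library total alone, the globin gene Hba-x stood at 1164, 2250 and 2442 CPM in Δ17,18 and 3956, 1791 and 671 CPM in Δ17 tail buds. In hearts it stood at 268, 356 and 2017 CPM in Δ17,18 and 1122, 1022 and 218 CPM in Δ17. All 7 tested replication-dependent histone genes were positive (median 0.76, 0 called). The part of such RNA in the other calls was not tested, but the count of called genes was recomputed without the hearts, which gave 224, and without the remaining embryo, which gave 61.

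Chromosome 14 carries the cluster and had a larger share of called genes than the other chromosomes. Of 612 tested genes there, 35 passed (5.72%), while the other autosomes and X had between 1.10% and 3.18% (Y, with 5 tested genes, had 0 called). Among them were Phyhip, Esd, Elp3, Tnfrsf10b, B930095G15Rik, Tmem260 and Tpt1, named above, and 6 of the 20 genes with the smallest p lay on this chromosome. They lay 6.21 to 94.7 Mb from Mir17hg, 5 of them within 20 Mb. Without them 1.98% of the tested genes were called, and 347 genes passed when chromosome 14 was left out of the adjustment. In Δ18 against wild type, 16 of the 612 genes on chromosome 14 passed (2.61%). The other autosomes and X ran there from 1.57% on chromosome 18 to 4.02% on chromosome 12.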

How the data were processed

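The authors deposited 1 table of raw read counts, with Ensembl gene IDs in its rows. The submitters' processing notes name the aligner STAR (2.3.0), the counter featureCounts (Subread 1.4.2) and SAMtools (0.1.14), and mm9 and NCBIM37 as builds. The strand setting and the handling of multi-mapping reads were not stated there, so overlapping, antisense and near-identical genes are uncertain. Groups and replicate numbers came from the sample titles. All libraries of a tissue were fitted together with edgeR 4.0.16 in R 4.3.3 (filterByExpr, TMM, robust quasi-likelihood, Benjamini-Hochberg threshold 0.05), and a joint fit of 71 libraries with 1 mean per group gave the mean over tissues, the difference between tissues and the difference between the 2 miR-18a effects. The steps were tested on simulated data with independent libraries and the same spread for all genes. Deviations shared by the tissues of a replicate number were not simulated, so the simulation cannot check the p-values of the joint fit against them. DESeq2 1.42.0 and limma 3.58.1 were alternatives, beside another scaling, no filter, fewer libraries, a replicate block and left-out replicates. Depth of 13532012 to 27477273 counts per library limits the precision of low genes, and counts of replicates differed beyond counting noise in each pair (chi-square per degree of freedom at least 2.66). With 3 libraries per group, p-values measure the spread between libraries within groups, estimated over all groups of a fit. The joint fit counts the tissues of a replicate number as independent, apart from the alternative with the replicate block across tissues.

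Symbols and 3′ UTRs came from the GENCODE annotation of GRCm38 by gene ID (32897 of 37620 IDs), which is not the build of the files, and printed coordinates are of GRCm38. Same-numbered libraries of a genotype deviated together across tissues (r 0.12 to 0.57, each of 18 pairs above 0.1), so the replicate block joins tissues. Within a tissue, same-numbered libraries of Δ17,18 and Δ17 did not (r -0.387 to 0.147 over 9 pairs). The comparison, gene lists and rules were chosen with earlier results of these data known. Named genes were 8 fixed genes, up to 6 per direction and tissue by fold change, up to 12 per direction by p in the mean, up to 4 by p for the difference of effects, up to 10 higher and 4 lower 8mer genes, and up to 3 per list. Values of some single genes are not reported here.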

Additional observations from a re-analysis of the deposited data

Results flagged for a closer look

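The effect of miR-18a loss differed without and with miR-17 for 22 genes over the tissues, by a test of the difference itself (Δ17,18 minus Δ17 less Δ18 minus wild type, log2 scale, edgeR, adjusted p under 0.05). Among the 18 genes with a more negative effect where miR-17 was absent, the differences were as follows. Efcab7 had -1.60, Eif3s6-ps2 -0.59, Gm7334 -0.46, Scd2 -0.44 and Esd -0.39. Atm had -0.35, Srebf1 -0.31, Kpna6 -0.27, Tex2 -0.25, Tmem260 -0.25, Agpat3 -0.25 and Eri1 -0.24. Trappc10 had -0.22, Rcor1 -0.20, Smad2 -0.20, Armc8 -0.19 and Sae1 -0.15. Picked out after their values were seen, 3 lipid genes stand among them: Srebf1, the SREBP1 factor (-0.01 in Δ17,18 against Δ17 and 0.30 in Δ18 against wild type), Scd2, a fatty acid desaturase (-0.23 in Δ17,18 against Δ17 and 0.21 in Δ18 against wild type), and Agpat3, an acyltransferase (0.05 in Δ17,18 against Δ17 and 0.30 in Δ18 against wild type). The 4 genes with a more positive effect were Phyhip (1.82), 4930524J08Rik (0.92), Spata5l1 (0.50) and Cox6c2 (0.40). In the remaining embryo alone, Atm (-0.37, adjusted p = 0.000416) and Efcab7 (-1.59, adjusted p = 0.00122) passed the same test.

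Efcab7 rests on Δ17 and Δ18 libraries that were unequal within their genotype in each tissue, and it still passed in each of 20 alternative analyses, as did Atm, Kpna6 and Phyhip. With the replicate block across tissues (limma voom) 12 genes passed, 11 with a more negative effect and 1, Phyhip, with a more positive one. Of the genes listed above, Spata5l1 (adjusted p = 0.0513), 4930524J08Rik (0.0851) and Cox6c2 (0.103) lost the call with that block. So did Scd2 (0.0581), Tmem260 (0.0611), Sae1 (0.0668), Rcor1 (0.103), Srebf1 (0.108), Armc8 (0.109) and Tex2 (0.113).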

How the results depend on the processing

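For Δ17,18 against Δ17, tail bud had 1 call with RLE factors (0 as reported), 21 with DESeq2, 3 with no filter on low counts, 15 with the 6 libraries alone and 1 with the replicate block, and leaving out 1 replicate gave 0 to 7. Heart had 21 calls with DESeq2, 289 with no filter, 0 with the 6 libraries alone and 2 to 8 with 1 replicate left out. The remaining embryo had 68 with DESeq2, 395 with no filter, 149 with the 6 libraries alone (125 higher, 24 lower) and 6 to 29 with 1 replicate left out. The mean over the tissues had 209 calls with no filter (147 higher, 62 lower), 179 with the replicate block across tissues and 96 to 755 with 1 replicate number left out. It had 224 without hearts and 61 without the remaining embryo, both chosen after seeing the data. It had 522 (240 higher, 282 lower) without the first Δ17,18 tail bud, also chosen after seeing the data. Among the other settings there were 409 for RLE factors, 387 for limma voom, 390 for the 18 libraries alone, 443 with a term for libraries that express Xist and 362 with replicate number as a block within each tissue. A term for Xist expression gave 217 higher and 226 lower. The test between tissues gave 2 calls with the replicate block across tissues and 0 to 1 with 1 replicate left out.

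For the difference between the effects, tail bud had 1 call with DESeq2 and 0 to 1 with 1 replicate left out, heart had 188 with no filter and 0 to 1, and the remaining embryo had 73 with no filter, 1 with the 12 libraries alone and 2 to 5. The mean had 14 with the 36 libraries alone, 12 with the replicate block across tissues and 11 to 51. The median of the 8mer genes was 0.0133 when 7mers were included, and 0.0127 to 0.0333 with 1 replicate left out. The share of genes higher in Δ18 that kept their sign was 90.3% with no filter, 90.7% without the third wild-type tail bud, 91.5% without hearts, 91.5% without the remaining embryo and 80.6% to 89.0% with 1 replicate left out.

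Of 876 values of single genes under an alternative, 760 kept their direction and side of the threshold, 110 lost the call and 6 changed sign. The sign changed for Mir17hg (-0.0165 with the Xist term, -0.0314 without Δ17,18 replicate 1, -0.00539 without Δ17 replicate 3 and -0.0055 without the first Δ17,18 tail bud), Hif1a (0.0195 without Δ17,18 replicate 2) and Nedd9 (-0.0126 without hearts), none of which was called. Over the fits with 1 replicate number left out, Mir17hg ran from -0.0314 to 0.0188 and Hif1a from -0.0339 to 0.0195. All 24 genes named from the mean passed in every alternative set out at the start; B930095G15Rik (adjusted p = 0.151) and Gm7862 (0.0547) lost the call without the remaining embryo. The causes of these moves were not tested. The replicate block within a tissue changed no other call by over 1.5 times. Depth limits what low genes can show, and a fit with no filter tests up to 32124 genes in place of 18875.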
